A study of Mus musculus with 6 samples.

Results

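Interleukin genes were followed across 6 libraries of muscle mononuclear cells from tumour-bearing mice. The set was every gene of the deposited table whose symbol starts with Il and a digit, apart from Il6ra and Il6st, which were left out. It held 55 of the 17030 genes in the table: ligands, receptor chains, decoy receptors and antagonists. The rule also took in Il4i1, which encodes an amino acid oxidase induced by IL-4, and Il1bos, a transcript antisense to Il1b. Each library was made from skeletal muscle mononuclear cells of male C57BL/B6 mice with Lewis lung carcinoma (LLC), a transplanted tumour used to study cancer cachexia. The samples carry separate numbers and are called mice here, but the labels do not say that each is 1 animal, and if they were not, the p-values would measure only the spread between these samples. All 6 mice carried floxed IKKb alleles (IKKbfl/fl) and received tamoxifen on days 10 to 14 after the tumour cells were injected. In 3 of them, the Pax7 Cre ErT x IKKbfl/fl mice, called Cre mice here, Pax7 drove a Cre recombinase that tamoxifen activates. The other 3 were IKKbfl/fl mice without Cre, called controls. Mice with Cre but no floxed alleles, and mice free of tumour, were not among the 6, so effects of Cre itself cannot be told apart from those of the deletion and no tumour effect can be read. Pax7 marks satellite cells, which are only part of this preparation.

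Interleukins are secreted proteins by which leukocytes, endothelium and stroma signal to each other. Most act through paired receptor chains that are shared between several ligands. The IL-1 and IL-17 families signal through adaptors to IKK and NF-kB, and most other families through JAK kinases and STAT factors. Il1b and Il6 are textbook NF-kB target genes, and IL-6 is a circulating mediator of cachexia in tumour-bearing mice.

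Levels are given as CPM, reads of a gene scaled to an equal library total of 1000000. Assigned reads per library were estimated at 4054000 to 13355000, which gave a gene at 10 CPM a counting SD of 8.65% to 15.7% and a gene at 1 CPM 27.4% to 49.7%. Ikbkb, which encodes IKKb, measured 51.4, 48.4 and 52.7 CPM in the Cre mice and 51.3, 57.4 and 48.8 in the control mice. The table gives 1 value a gene, so loss of the floxed part was not measured. The preparation held transcripts of many cell types. Summed over markers, endothelial genes reached 6687 to 9422 CPM, pericyte and smooth muscle genes 7412 to 11888, fibro-adipogenic progenitor genes 3398 to 6870, macrophage genes 387 to 1055, satellite cell genes 349 to 420.1 and myofibre genes 978 to 2863. Control replicate 3 stood apart, with erythroid markers at 119827 CPM against 16133 to 45591 elsewhere, and it was the shallowest library. All 7 erythroid and all 6 B cell markers had lower means in the Cre mice. All 13 myofibre, 10 pericyte and smooth muscle, 7 Schwann cell and 10 dissociation and heat shock markers had higher means there. Fewer cells of a type and less RNA per cell cannot be told apart in these bulk libraries.

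No interleukin gene differed between Cre mice and controls past the adjustment for all genes tested. Of the 55 genes, 43 reached 1 CPM or more in 3 or more libraries and were tested with limma on log2(CPM + 1), and 12 did not. None of the 43 passed at an adjusted p under 0.05, where 1 of 14763 genes (0.00677%) did. The adjusted p of the members ran from 0.891 to 0.991. At an unadjusted p under 0.05, 1 member was higher in the Cre mice, Il17rc, and 0 were lower, against 4.58% and 0.942% of all genes tested, or 5.52% in either direction. Without control replicate 1, and with quantile normalization, the count stayed at 1 but the gene was Il18rap, lower in the Cre mice, in place of Il17rc. Of all 14763 genes, 1022 and 680 had such a p in these fits. The count was 2 without Cre replicate 1 (Il17ra and Il31ra, lower), where 443 of all genes did. It was 0 without Cre replicate 2 or 3, where 493 and 862 of all genes did. It was 3 without control replicate 3 (Il17rc, Il10ra and Il7, higher), where 6.50% of all genes had such a p. Without Cre replicate 3 and control replicate 3 together it was 6 (Il10ra, Il11ra1, Il18, Il1rl1 and Il7, higher, and Il1b, lower), where 8.77% of all genes did. The smallest adjusted p of any member under any of these alternatives was 0.457.

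The middle of the member distribution was close to that of all genes. The log2 fold change, Cre minus control, was above 0 for 26 of the 43 and below 0 for 17, or 60.5% above 0 beside 68.0% of all genes, and its median was 0.09, beside 0.09 over all genes tested. For Il10ra, Il21r and Il34 the mean CPM was lower in the Cre mice although the log2 fold change was above 0. With TMM scaling the split was 22 above and 21 below 0, or 51.2% beside 50.8%, with a median of 0.0040 beside 0.0035 over all genes. The values of the Cre mice and the controls did not overlap for 2 members that were higher (Il17rc and Il17d) and 1 that was lower (Il4i1), against 8.69% and 2.28% of all genes, or 11.0% in either direction. For 27 of the 43 the 95% interval lay within 1 log2 unit either way, which includes all 18 members with a mean of at least 10 CPM. For the other 16 the interval reached past 1 log2 unit on at least 1 side. Exact 2-sided permutation tests of single genes cannot give less than 0.1 with 3 mice against 3.

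**Figure D1:**
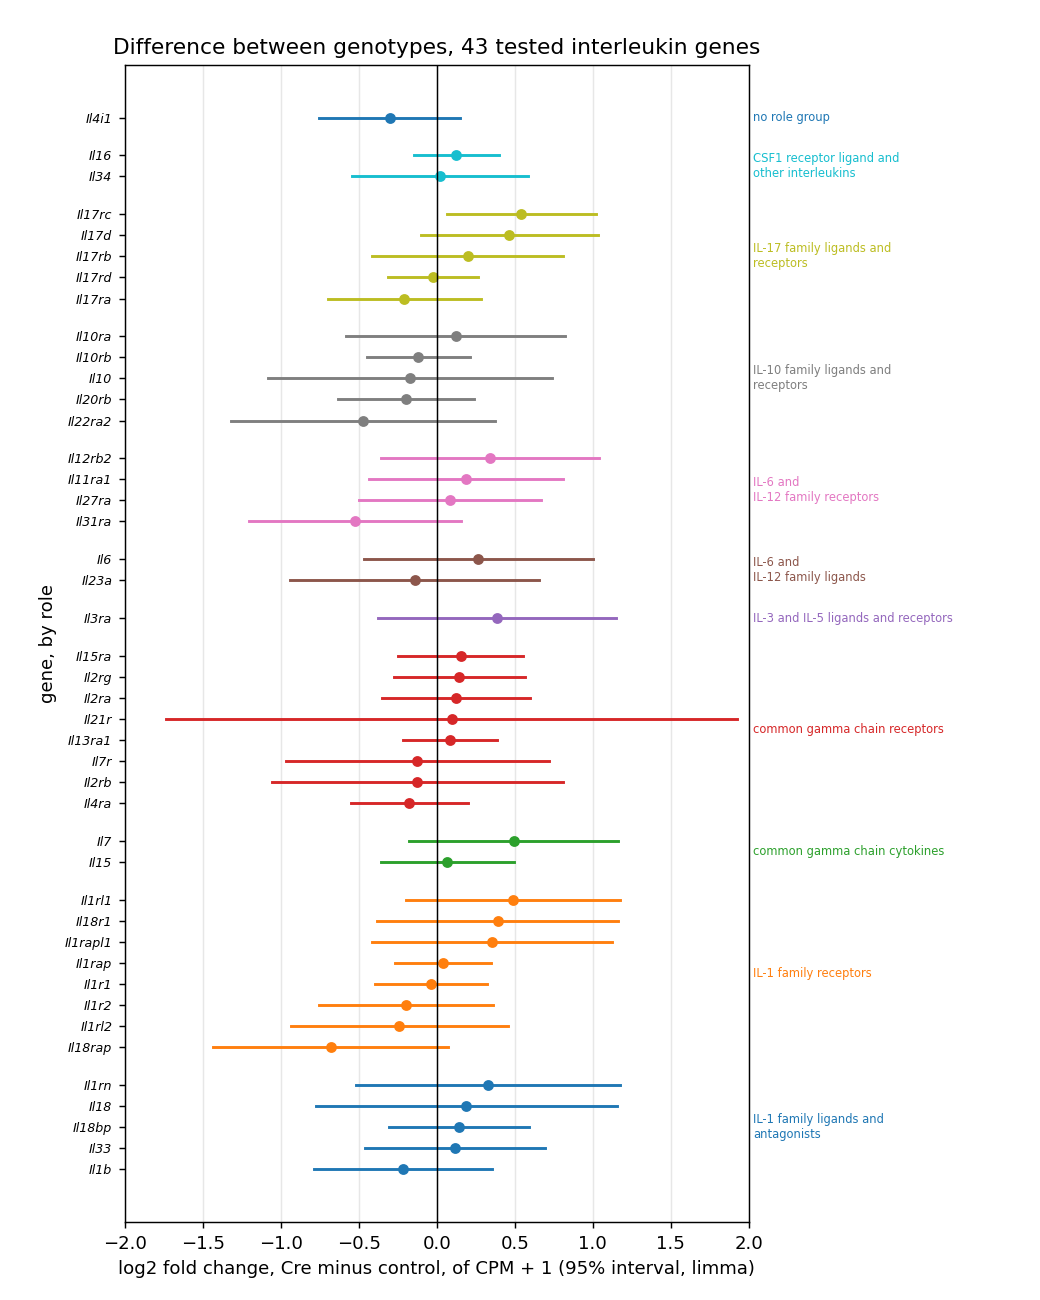
Log2 fold change (Cre minus control, of CPM + 1) on the x axis for the 43 tested interleukin genes on the y axis, grouped by role; points are limma estimates from 3 mice against 3 and bars their 95% intervals. The interval of Il17rc alone leaves 0, before any adjustment, and that of Il21r is the widest at -1.73 to 1.92.

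Per kilobase of exon, the upper end of the family held both receptor chains and ligands. Dividing CPM by the exonic length of each gene allows levels to be compared between genes. Il4ra, the shared chain of the IL-4 and IL-13 receptors, stood at 69.3 ± 10.4 CPM per kb (mean and SD over 6 libraries). Il10rb, the chain shared by the receptors of IL-10, IL-22 and the interferon lambdas, followed at 38.4 ± 4.53, level with the ligand Il1b at 37.5 ± 11.1. Next came Il13ra1 at 21.2 ± 1.87, Il2rg at 19.1 ± 3.41, Il1r1 at 17.5 ± 2.31, Il6 at 14.6 ± 5.09, Il16 at 13.8 ± 0.984 and Il33 at 12.4 ± 3.61 CPM per kb. Il10rb and Il1b differed by less than the larger of their SDs, as did each pair of neighbours from Il13ra1 to Il33, while the steps from Il4ra to Il10rb and from Il1b to Il13ra1 exceeded it. Il10rb and Il2rg share exon sequence with Gm21970 and Gm20489 on the same strand, so the division of reads there is uncertain. At the lower end, Il12rb1, a chain of the IL-12 and IL-23 receptors, reached 0.0942 ± 0.107 CPM per kb.

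**Figure D2:**
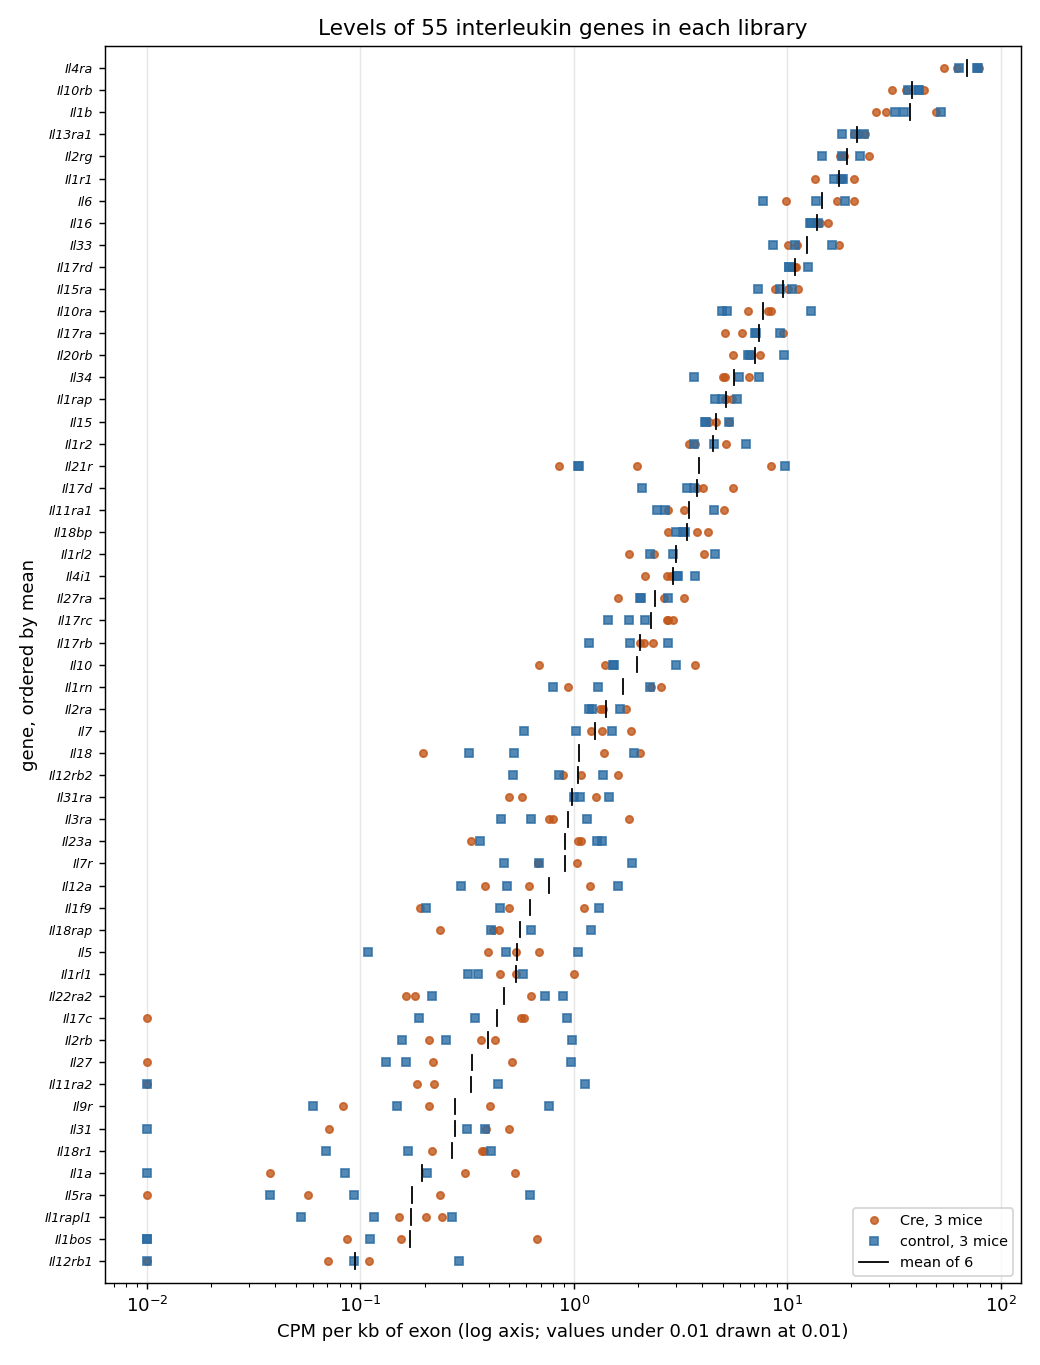
CPM per kb of exon (log x axis) of the 55 interleukin genes, ordered by their mean over 6 libraries; each point is a library of a Cre or control mouse and the black tick is the mean. Il4ra lies highest in all 6 libraries, and Il21r shows 2 libraries far above the other 4.

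Among the IL-1 family ligands and antagonists, Il1b and Il33 were the most abundant, and neither separated the genotypes. Il1b, a pyrogenic cytokine of activated myeloid cells (chr2:129364578-129371139), measured 39.5, 35.4 and 67.4 CPM in the Cre mice and 43.5, 71.5 and 47.9 in the control mice. The highest values were in Cre replicate 3 and control replicate 2, and the groups overlapped. Its log2 fold change was -0.21 (adjusted p = 0.925, SE 0.26), with a 95% interval of -0.78 to 0.36. Il33, a nuclear alarmin released from damaged stromal and endothelial cells (chr19:29925113-29960717), measured 45.7, 26.3 and 28.9 CPM in the Cre mice and 28.4, 22.5 and 42.4 in the control mice. Cre replicate 1 and control replicate 3 were the high libraries, and the log2 fold change was 0.11 (adjusted p = 0.961, SE 0.26). Il18bp encodes the soluble inhibitor that binds IL-18, and measured 12.9, 11.5 and 8.34 CPM in the Cre mice and 10.03, 9.83 and 9.13 in the control mice, with overlap and a log2 fold change of 0.14 (adjusted p = 0.941, SE 0.20). Il18 itself was fainter, from 0.204 to 2.103 CPM. Il1rn, the antagonist that blocks the IL-1 receptor, ran from 2.17 to 6.92 CPM. Il1a and Il1f9 (the IL-36 gamma gene) did not pass the filter, at 0 to 1.05 CPM for Il1a and 0.315 to 2.16 for Il1f9.

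The IL-1 receptor genes showed the same absence of a called difference. The table held 6 of them in a cluster on chromosome 1, from Il1r2 at 40084714 to Il18rap at 40551705 (mm10), and control replicate 3 was the highest library for Il1r2, Il1rl2, Il18r1 and Il18rap, but not for Il1r1 or Il1rl1. Il1r1, the signalling receptor of IL-1 (chr1:40225080-40316177), measured 111, 126 and 83.04 CPM in the Cre mice and 112, 109.8 and 102 in the control mice. The lowest and the highest value were both in Cre mice, and the log2 fold change was -0.04 (adjusted p = 0.979, SE 0.16). Il1rap, the accessory chain that the IL-1, IL-33 and IL-36 receptors share (chr16:26581705-26730128), was among the steadiest members at 44.1, 47.3 and 44.4 CPM in the Cre mice and 42.8, 50.2 and 39.5 in the control mice, with a log2 fold change of 0.04 (adjusted p = 0.976, SE 0.14). Il1rl2, the IL-36 receptor (chr1:40324589-40367553), measured 16.5, 9.66 and 7.33 CPM in the Cre mice and 9.19, 11.9 and 18.5 in the control mice. Its high libraries were again Cre replicate 1 and control replicate 3, and its log2 fold change was -0.24 (adjusted p = 0.937, SE 0.31). Il1r2, a decoy that binds IL-1 without signalling, ran from 4.94 to 9.13 CPM. Il1rl1, the IL-33 receptor ST2, ran from 2.17 to 6.83. Il18rap encodes the accessory chain of the IL-18 receptor. It measured 1.16, 2.17 and 2.04 CPM in the Cre mice and 2.01, 3.099 and 5.92 in the control mice. It was highest in control replicate 3, where the sum of T and NK cell markers was also highest, at 34.5 CPM. Of these markers, Cd8a and Lck were highest in Cre replicate 3, Klrb1c in control replicate 1 and the rest in control replicate 3. Control replicate 2, with the next highest Il18rap value, had the lowest sum, 6.601 CPM. The part of those cells in Il18rap was not tested. Singled out after its values were seen, Il18rap had the log2 fold change farthest from 0 among the 43 tested members, -0.68 (adjusted p = 0.896, SE 0.34), with an interval of -1.43 to 0.07. Without control replicate 3 it was -0.35. Il18r1 and Il1rapl1 stayed at or below 2.51 CPM.

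The receptors of the common gamma chain and of IL-4 and IL-13 were the largest receptor group, with 9 genes in the table and 8 tested. Il4ra (chr7:125552271-125579474) measured 416, 287 and 327 CPM in the Cre mice and 413, 406 and 336 in the control mice. The lowest library was Cre replicate 2, the groups overlapped, and the log2 fold change was -0.18 (adjusted p = 0.911, SE 0.17) with an interval of -0.55 to 0.20. Il13ra1, which joins Il4ra in the receptor for IL-13 and IL-4 (chrX:36112108-36171261), measured 85.9, 80.9 and 76.1 CPM in the Cre mice and 85.1, 67.1 and 77.5 in the control mice. Its log2 fold change was 0.09 (adjusted p = 0.945, SE 0.13). Il2rg, the common gamma chain itself (chrX:101264385-101268255), measured 29.4, 30.8 and 40.5 CPM in the Cre mice and 24.4, 30.2 and 36.5 in the control mice, highest in replicate 3 of each genotype, with a log2 fold change of 0.14 (adjusted p = 0.937, SE 0.19). Il15ra, the chain that presents IL-15 to neighbouring cells (chr2:11705293-11733985), measured 20.1, 23.1 and 25.8 CPM in the Cre mice and 24.1, 21.3 and 16.8 in the control mice with overlap and a log2 fold change of 0.15 (adjusted p = 0.925, SE 0.18). The 2 ligands of this family that were measured did not pass either. Il15 (chr8:82331624-82402586) measured 9.78, 9.06 and 11.2 CPM in the Cre mice and 11.2, 8.76 and 8.63 in the control mice, with a log2 fold change of 0.07 (adjusted p = 0.969, SE 0.19). Il7, the survival factor of lymphocytes, measured 10.3, 6.66 and 7.53 CPM in the Cre mice and 5.68, 3.23 and 8.39 in the control mice, with the lowest value in control replicate 2. Il2ra, a chain of the IL-2 receptor, ran from 6.17 to 9.16 CPM.

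Il21r, the IL-21 receptor of lymphocytes, varied most between mice among the members above 5 CPM, and was singled out after its values were seen. It measured 5.05, 2.17 and 21.4 CPM in the Cre mice and 2.67, 2.69 and 24.9 in the control mice. Cre replicate 3 and control replicate 3 were far above the other 4 libraries, which lay at 2.17 to 5.05 CPM. Each genotype held 1 of the high libraries, and the log2 fold change of 0.10 (adjusted p = 0.988, SE 0.82) had an interval of -1.73 to 1.92. Il21r lies at chr7:125603429-125633570, downstream of Il4ra on the same strand, and Il4ra showed no such division. B cell markers moved with it: the 6 of 7 listed that the table holds summed to 16.4, 13.3 and 102 CPM in the Cre mice and 16.7, 16.8 and 170.2 CPM in the controls, and all 6 had their highest values in these 2 libraries. T and NK cell markers, 9 of 12 listed, summed to 11.2, 8.39 and 25.03 CPM and to 7.86, 6.601 and 34.5 CPM, with 5 of the 9 at 0 in at least 1 library, among them Cd3e and Cd3g. The part of these cells in the values of Il21r was not tested.

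Cre replicate 3 and control replicate 3 held the highest 2 values of 8 of the 43 tested members (18.6%), against 5.84% of all genes tested. They were Il21r, Il2rb, Il2rg, Il7r, Il10ra, Il10rb, Il18r1 and Il1r2. The margin was small for some of them: Il10rb reached 80.6 and 76.7 CPM there and 75.8 CPM in control replicate 2. Il7r, the IL-7 receptor, measured 2.42, 2.396 and 3.66 CPM in the Cre mice and 1.67, 2.42 and 6.66 in the control mice. Il2rb, a chain of the IL-2 and IL-15 receptors, measured 1.58, 0.899 and 1.83 CPM in the Cre mice and 0.669, 1.08 and 4.19 in the control mice. Control replicate 3 was the high library for both, and these levels rest on few reads. Il9r, the IL-9 receptor, did not pass the filter and reached 3.45 CPM in control replicate 3 and 1.83 CPM in Cre replicate 3, with 0.269 to 0.946 elsewhere.

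**Figure D3:**
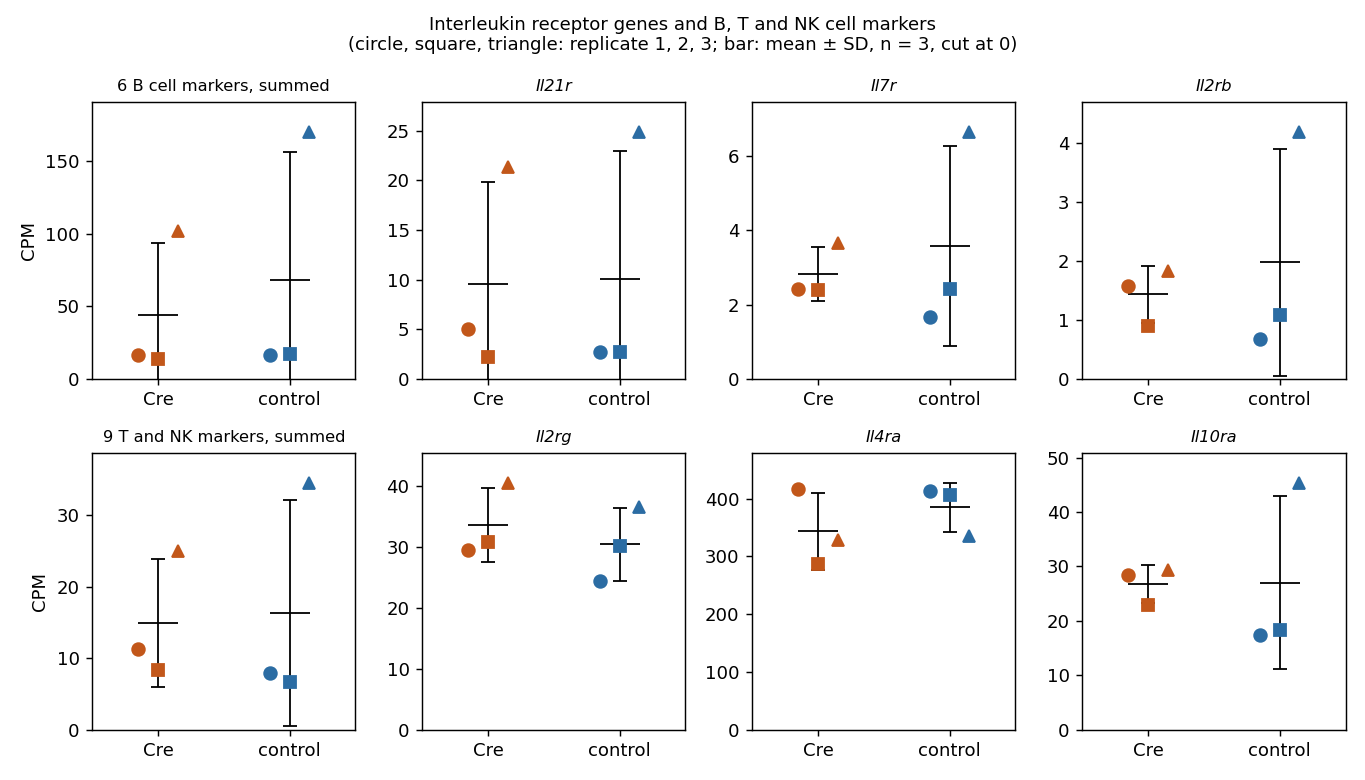
CPM (y axes from 0) of interleukin receptor genes and of summed B cell and T and NK cell markers in 3 Cre and 3 control mice; symbols give the replicate and bars the mean ± SD. The triangles, replicate 3 of each genotype, stand high for Il21r and the B cell markers, and not for Il4ra.

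In the IL-6 and IL-12 families, Il6 was the abundant ligand. It is shown with its promoter because it is a textbook target of NF-kB, the pathway that the floxed kinase activates. The 250 bases upstream of the RefSeq starts (GRCm38.p6, the build of mm10) were searched on both strands for the NF-kB consensus, a motif of 10 letters. Of the 42 members with such a window, 4 held a match, Il6, Il2ra, Il16 and Il1r1, which is 9.52% against 4.46% of all genes with windows of the same length. In Il16 and Il1r1 the match lay at an alternative, downstream start. Il1b, the other textbook target named above, was not among the 4. The windows of Il6 and Il2ra precede the start of the gene and are printed 5′ to 3′ on the strand of the gene, + in both, with the matched bases in capitals. A match describes letters only and is not evidence of binding.
Il6, chr5:30012864-30013113: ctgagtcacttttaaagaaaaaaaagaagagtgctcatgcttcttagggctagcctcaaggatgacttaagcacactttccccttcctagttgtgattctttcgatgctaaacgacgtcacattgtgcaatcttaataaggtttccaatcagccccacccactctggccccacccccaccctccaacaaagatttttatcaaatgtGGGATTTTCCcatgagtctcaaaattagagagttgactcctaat
Il2ra, chr2:11642542-11642791: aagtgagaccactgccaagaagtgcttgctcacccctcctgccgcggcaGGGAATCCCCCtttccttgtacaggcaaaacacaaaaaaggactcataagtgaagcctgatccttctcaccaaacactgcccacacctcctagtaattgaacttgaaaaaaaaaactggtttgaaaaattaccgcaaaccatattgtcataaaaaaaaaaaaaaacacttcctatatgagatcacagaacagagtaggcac
The Il6 match begins 44 bases upstream of the start. In Il2ra the capitals hold overlapping matches on both strands, the first beginning 201 bases upstream.

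None of the 4 genes with a matched window passed. Il6 (chr5:30013114-30019975) measured 50.04, 23.96 and 41.5 CPM in the Cre mice and 45.3, 33.01 and 18.7 in the control mice. The lowest libraries were control replicate 3 and Cre replicate 2, and the groups overlapped. Its means were 38.5 ± 13.3 CPM in the Cre mice and 32.4 ± 13.3 CPM in the controls (SD, n = 3 each), and the log2 fold change was 0.27 (adjusted p = 0.9298, SE 0.33) with an interval of -0.46 to 0.998. Dissociation and heat shock markers, immediate early genes among them, summed to 15718, 11298 and 13989 CPM and to 10520, 11437 and 7594 CPM, also lowest in control replicate 3. Their part in the values of Il6 was not tested. Without control replicate 3 the value was -0.07, so its sign rested on that library. Il2ra, Il16 and Il1r1 had log2 fold changes of 0.12, 0.13 and -0.04, each with an adjusted p of at least 0.914 in limma.

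The receptors and the other ligands of these families were faint. Il11ra1, the receptor of the fibrogenic cytokine IL-11 (chr4:41760443-41769473), measured 12.7, 8.24 and 6.92 CPM in the Cre mice and 6.69, 6.197 and 11.3 in the control mice, high in Cre replicate 1 and control replicate 3, with a log2 fold change of 0.19 (adjusted p = 0.942, SE 0.28). Il27ra, the receptor of IL-27, ran from 4.31 to 8.75 CPM. Il12rb2, the signalling chain of the IL-12 receptor, ran from 1.97 to 6.11. Il31ra, the receptor of the itch cytokine IL-31, ran from 1.95 to 5.67. Il23a, a subunit of IL-23, stayed at or below 1.84 CPM. Il12a, Il27, Il31, Il12rb1 and Il11ra2 did not pass the filter, with highest values of 2.22, 0.987, 0.526, 0.836 and 1.47 CPM. Il11ra2 is a close copy of Il11ra1, so reads may be divided between them, and its values are uncertain.

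In the IL-10 family, the log2 fold change was below 0 for 4 of the 5 members, all except Il10ra, and none passed. Il10rb (chr16:91406235-91425834) measured 57.6, 66.9 and 80.6 CPM in the Cre mice and 68.5, 75.8 and 76.7 in the control mice, with a log2 fold change of -0.12 (adjusted p = 0.932, SE 0.15). Il10ra, the ligand-specific chain carried by leukocytes (chr9:45253837-45269149), measured 28.4, 22.8 and 29.3 CPM in the Cre mice and 17.4, 18.3 and 45.4 in the control mice. Control replicate 3 exceeded every other library, and the remaining controls lay below all 3 Cre mice. The log2 fold change of Il10ra was 0.12 (adjusted p = 0.967, SE 0.31) with all libraries and 0.55 without control replicate 3 (adjusted p = 0.597). Macrophage markers summed to 1055 CPM in that library against 387 to 741 in the other 5. The sums of B cell, T and NK cell, dendritic cell and neutrophil markers were also highest there, at 170, 34.5, 848 and 152 CPM. That of mast cell and eosinophil markers was highest in Cre replicate 3, at 79.4 CPM. The part of any of these cells in the values of Il10ra was not tested. Il20rb, a chain of the IL-20 and IL-24 receptors (chr9:100457719-100486473), measured 18.7, 15.5 and 20.8 CPM in the Cre mice and 26.9, 18.3 and 18.7 in the control mice, highest in control replicate 1, with a log2 fold change of -0.20 (adjusted p = 0.914, SE 0.19). The ligand Il10, an inhibitor of inflammation, ran from 0.899 to 4.84 CPM. Il22ra2, a soluble decoy for IL-22, ran from 0.407 to 2.22 CPM.

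The IL-17 family held the member with the smallest p. Il17rc, the chain that pairs with Il17ra to bind IL-17A and IL-17F (chr6:113471455-113483163), measured 6.73, 6.36 and 6.31 CPM in the Cre mice and 3.34, 4.98 and 4.19 in the control mice. All 3 Cre mice were above all 3 controls. Its means were 6.47 ± 0.228 CPM in the Cre mice and 4.17 ± 0.821 CPM in the controls (SD, n = 3 each). The log2 fold change was 0.54 (adjusted p = 0.891, SE 0.21) in limma, with an interval of 0.06 to 1.02 and an unadjusted p of 0.0302, and the exact permutation p was 0.1. With TMM scaling it was 0.46 (unadjusted p = 0.0549). Without control replicate 1 the unadjusted p was 0.0959, and without Cre replicate 1, 2 or 3 it was 0.0812, 0.0662 and 0.0567. At 4.05 to 13.3 reads per CPM, the lowest library, by reads, held an estimated 17 reads of the gene. Il17d, a ligand of the family (chr14:57524829-57543166), measured 4.84, 5.17 and 7.12 CPM in the Cre mice and 2.67, 4.31 and 4.69 in the control mice. Its groups did not overlap either, by a small margin, and the log2 fold change was 0.47 (adjusted p = 0.896, SE 0.25).

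The more abundant receptors of the family did not share this pattern. Il17ra (chr6:120463197-120483727) measured 74.1, 39.5 and 47.6 CPM in the Cre mice and 54.7, 55.2 and 71.8 in the control mice, high in Cre replicate 1 and control replicate 3, with a log2 fold change of -0.21 (adjusted p = 0.9198, SE 0.22). Il17rd, an orphan receptor known as an inhibitor of FGF signalling (chr14:27039001-27107286), measured 122, 119 and 114 CPM in the Cre mice and 138, 112 and 112 in the control mice. It was nearly level over 5 libraries with control replicate 1 above them, and its log2 fold change was -0.02 (adjusted p = 0.982, SE 0.13). Il17rb, the IL-25 receptor, ran from 2.47 to 5.79 CPM. Il17c, an epithelial ligand, did not pass the filter, at 0 to 0.669 CPM. Traf3ip2, which encodes Act1, the adaptor bound by IL-17 receptors (chr10:39612934-39655307), was read from the list of pathway partners. It measured 14.7, 12.7 and 14.2 CPM in the Cre mice and 10.4, 8.89 and 11.1 in the control mice, without overlap. The log2 fold change was 0.42 (adjusted p = 0.891, SE 0.17) in limma, with an unadjusted p of 0.0365. With TMM scaling its unadjusted p was 0.0907. The limma p of Traf3ip2 was also not under 0.05 with quantile normalization or with totals that leave out erythroid genes. The same held without Cre replicate 1 or 3, control replicate 1 or 2, or both replicates 3. Without Cre replicate 2 or control replicate 3 it stayed under 0.05. Of the 41 tested partners, 4 were higher in the Cre mice without overlap and 0 lower, against 8.69% and 2.28% of all genes. The other genes of its list group, Nfkbiz and Zc3h12a, overlapped between the genotypes.

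**Figure D4:**
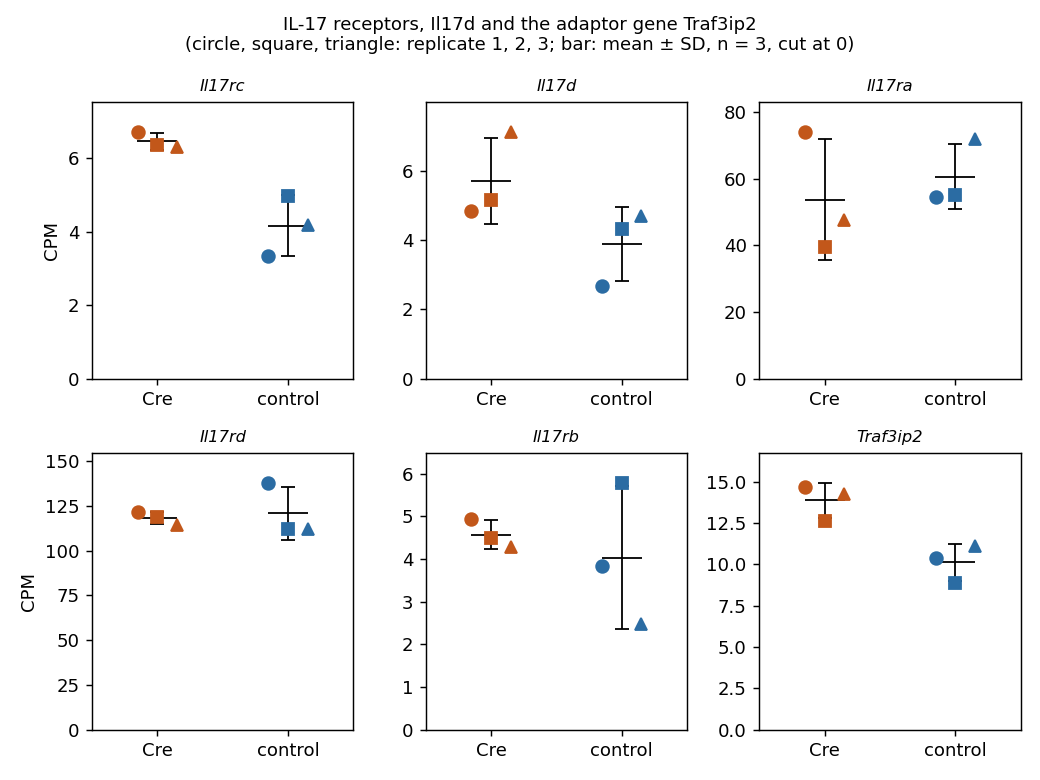
CPM (y axes from 0) of IL-17 family genes and Traf3ip2 in 3 Cre and 3 control mice; symbols give the replicate and bars the mean ± SD. For Il17rc, Il17d and Traf3ip2 all Cre points lie above all control points, while Il17ra, Il17rd and Il17rb overlap.

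The remaining members were Il3ra, Il5, Il5ra, Il16, Il34, Il4i1 and Il1bos. Il16, whose precursor is cleaved to a chemoattractant for CD4+ cells (chr7:83642819-83735539), measured 82.5, 72.7 and 76.1 CPM in the Cre mice and 69.04, 68.2 and 74.5 in the control mice, with a log2 fold change of 0.13 (adjusted p = 0.914, SE 0.12). Il34, an alternative ligand of the CSF1 receptor of macrophages (chr8:110741829-110805924), measured 9.15, 12.1 and 9.36 CPM in the Cre mice and 10.9, 13.5 and 6.66 in the control mice, lowest in control replicate 3, with a log2 fold change of 0.02 (adjusted p = 0.991, SE 0.25). Il3ra, the IL-3 receptor chain (chr14:14346495-14355490), measured 4.63, 1.95 and 2.04 CPM in the Cre mice and 1.17, 1.62 and 2.96 in the control mice, highest in Cre replicate 1, with a log2 fold change of 0.39 (adjusted p = 0.905, SE 0.34). Il4i1 (chr7:44836288-44840809) measured 6.39, 5.07 and 6.69 CPM in the Cre mice and 8.65, 7.25 and 7.13 in the control mice. The controls lay above the Cre mice without overlap, and the log2 fold change was -0.30 (adjusted p = 0.899, SE 0.20). Exons of Il4i1 overlap those of Nup62 on the same strand, so the division of reads between them is uncertain. Il5 and Il5ra stayed at or below 2.22 CPM and did not pass the filter. Il1bos was at 0 in control replicates 1 and 3 and reached 1.63 CPM in Cre replicate 3. Its gene overlaps Il1b on the other strand, and whether the counting used strand is not stated in the sources used here.

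A second division ran across the genotypes. Cre replicate 1 and control replicate 3 held the highest 2 values of 10 of the 43 tested members (23.3%), against 7.11% of all genes tested. This was seen in the data and is a description with no test. The 10 were Il33, Il1rl1, Il1rl2, Il11ra1, Il31ra, Il7, Il10, Il18, Il3ra and Il17ra. Il33 reached 45.7 and 42.4 CPM in these libraries against 22.5 to 28.9 in the other 4, and its receptor gene Il1rl1 6.83 and 3.95 against 2.17 to 3.66. Il11ra1 reached 12.7 and 11.3 CPM against 6.197 to 8.24, and Il10 4.84 and 3.95 against 0.899 to 2.02. The 12 fibro-adipogenic progenitor markers summed to 6870 and 5452 CPM there and 3398 to 3825 elsewhere. For 6 of the 12, among them Dcn at 2486 and 2545 CPM, these were the highest 2 libraries. For the rest they were not, and Ly6a had its lowest 2 values there, 391 and 372 CPM against 430 to 594 elsewhere. The 13 macrophage markers summed to 741 and 1055 CPM there and 387 to 532 elsewhere, and 12 of the 13 had their highest 2 values in these libraries. The part of either cell type in the 10 genes was not tested. Since 1 of these libraries belongs to each genotype, the pattern adds to the spread within both groups.

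**Figure D5:**
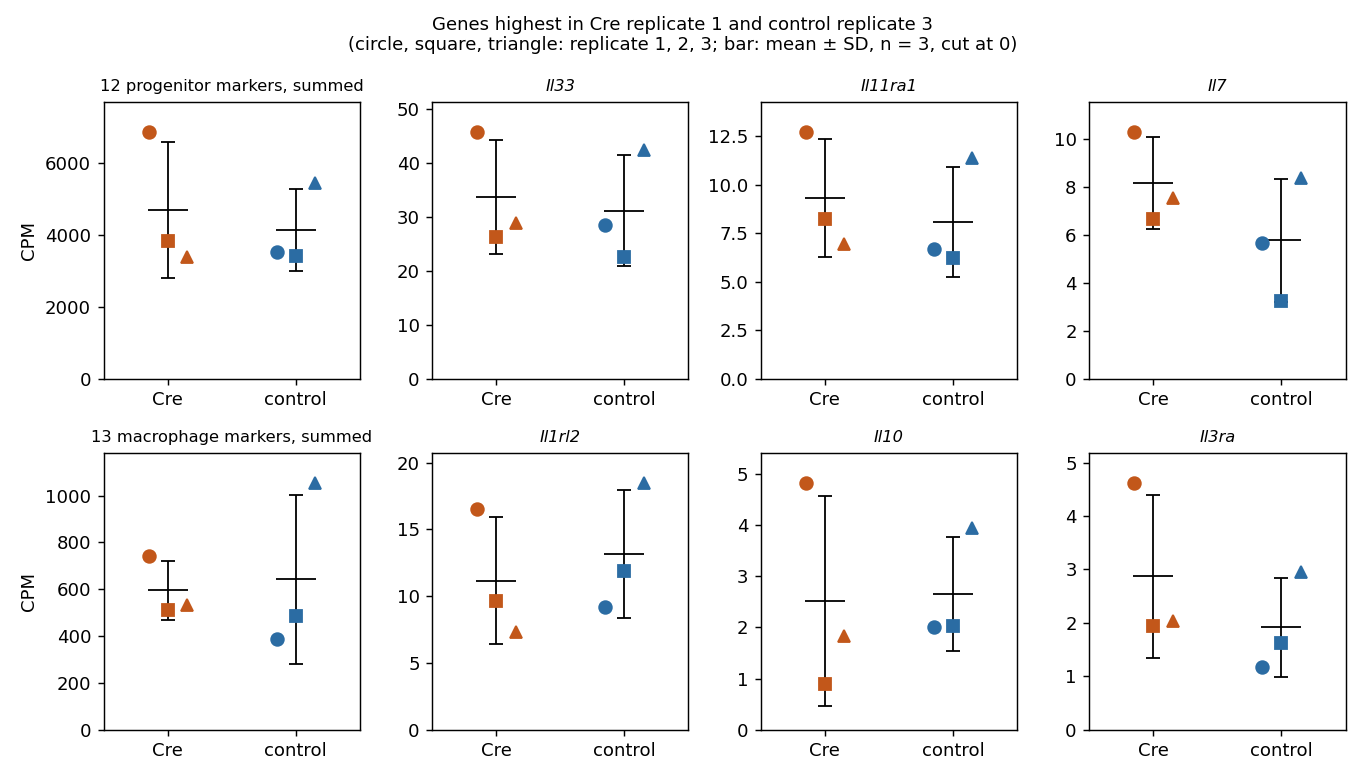
CPM (y axes from 0) of summed progenitor and macrophage markers and of 6 interleukin genes in 3 Cre and 3 control mice; symbols give the replicate and bars the mean ± SD. In each of the 8 panels, the Cre circle (replicate 1) and the control triangle (replicate 3) are the highest points.

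The genes that carry interleukin signals inside the cell, or pair with these receptors under other names, were read from a list of JAK kinases, STAT factors, SOCS inhibitors, IL-1 and IL-17 adaptors, inflammasome genes and shared chains. The table held 42 of them, all listed except Ebi3, and 41 were tested. None passed at an adjusted p under 0.05. At an unadjusted p under 0.05 in limma, 2 of the 41 were higher, Traf3ip2 among them, and 0 were lower. Of all genes tested, 4.58% were higher and 0.942% lower at such a p. The log2 fold change was above 0 for 31 and below 0 for 10, or 75.6% above 0 beside 68.0% of all genes. Its median was 0.11, beside 0.09 over all genes. With TMM scaling the split was 25 and 16, or 61.0% beside 50.8%.

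The most abundant partner of each group gave no call. Socs3, the feedback inhibitor of IL-6 signalling, measured 1620, 922 and 1404 CPM in the Cre mice and 1166, 1157 and 995 in the control mice, with a log2 fold change of 0.21 (adjusted p = 0.916, SE 0.22). Stat3, the main STAT downstream of IL-6, measured 245, 222 and 222 CPM in the Cre mice and 226, 236 and 182 in the control mice, with a log2 fold change of 0.10 (adjusted p = 0.937, SE 0.14). Jak1, a kinase used by most of these receptors, measured 145, 113 and 123 CPM in the Cre mice and 117, 105 and 76.7 in the control mice, with a log2 fold change of 0.36 (adjusted p = 0.896, SE 0.17). Nfkbiz, an IkB-like nuclear cofactor induced by IL-1 and IL-17, measured 652, 532 and 698 CPM in the Cre mice and 645, 651 and 383 in the control mice, and its log2 fold change was 0.20 (adjusted p = 0.922, SE 0.22). For Pycard, the inflammasome adaptor ASC, the values were 71.3, 27.9 and 53.7 CPM in the Cre mice and 63.4, 41.9 and 25.4 in the control mice, and for Tollip, an adaptor of IL-1 and Toll-like receptors, 73.8, 82.7 and 61.5 CPM in the Cre mice and 74.7, 80.6 and 68.3 in the control mice. Their log2 fold changes were 0.22 and -0.04. Csf1, a macrophage growth factor, measured 112, 84.01 and 86.9 CPM in the Cre mice and 80.1, 94.98 and 87.6 in the control mice, with a log2 fold change of 0.10. Jak1, Stat3, Nfkbiz and Pycard were each at their lowest in control replicate 3, and Socs3 in Cre replicate 2.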

How the data were processed

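Trizol was used to extract RNA from the muscle mononuclear cells, and libraries were made with a strand-specific SureSelect kit, per the labels' protocols. The values deposited by the authors are CPM with 0.0001 added to each, read from the column totals and minima. Partek, DESeq2 and mm10 are named in the submitters' processing notes, without roles. The aligner, counting rule and annotation are not given in the sources used here. The constant was subtracted and 1 was subtracted from each gene end, which then equalled the RefSeq end for 33 of 55 members.

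Depth was estimated from the CPM of 1 read. Of the values up to 20 reads, 92.8% to 93.9% were whole within 0.05 read, so reads were not recovered and no count test was run (95% was required). Counting errors cover read sampling only.

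Genes of 1 CPM or more in 3 or more libraries were tested with limma 3.58.1 (R 4.3.3) on log2(CPM + 1) with a mean-variance trend and Benjamini-Hochberg adjustment over 14763 genes. The constant shrinks fold changes of faint genes. TMM factors (trimmed mean of M values, trims of 30% and 5%) were computed on CPM. Exonic lengths are from GENCODE M21.

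Members and lists were chosen with earlier results of these data known. Values in every library are given for members that lead their role group, average at least 10 CPM, have an unadjusted p under 0.05, or do not overlap at a mean of at least 1 CPM. Others are given for context. A pathway partner that the rule names is not reported here. Replicates are numbered in record order. The labels give no batch.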

Additional observations from a re-analysis of the deposited data

How the results depend on the processing

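No member and no named partner passed at an adjusted p under 0.05 under any alternative tried; the smallest adjusted p among the named genes was 0.457. The count of all genes past the adjusted threshold, 1 with all libraries, was 2 with no filter on low values and 28 without both Cre replicate 3 and control replicate 3, an alternative chosen after seeing the data, and ran from 0 to 1 when 1 library was left out. The count of members at an unadjusted p under 0.05, 1 with all libraries, was 0 with TMM factors, 2 with array weights and 6 without both replicates 3, and ran from 0 to 3 when 1 library was left out. The count of partners at such a p, 2 with all libraries, was 1 with a constant of 0.5 CPM, TMM factors, quantile normalization, array weights or without both replicates 3, and ran from 0 to 3 when 1 library was left out. Over all genes tested the count was 815 with all libraries, 677 with TMM factors, 1121 with array weights and 1294 without both replicates 3. It ran from 443 to 1022 when 1 library was left out. The median log2 fold change of the members ran from -0.0082 to 0.11. Each change from the 0.09 reported above was smaller than 0.119. That value is the SD, pooled within the genotypes, of the median centred log2 level of the members in each library. Of 35 named genes, 17 kept their sign under every alternative. With TMM factors the log2 fold change turned to -0.0065 for Il13ra1, -0.015 for Il15, -0.050 for Il1rap and -0.060 for Il34. With quantile normalization the log2 fold change turned to -0.025 for Il15, -0.036 for Il1rap, -0.0082 for Il21r and -0.072 for Il34. With totals that leave out erythroid genes the log2 fold change turned to -0.0077 for Il1rap and -0.021 for Il34. With array weights the log2 fold change turned to -0.029 for Il1rap and -0.17 for Il34. When 1 library, or both replicates 3, were left out, the ranges of log2 fold changes that crossed 0 were -0.11 to 0.55 for Il10ra, -0.042 to 0.60 for Il11ra1, -0.0052 to 0.16 for Il13ra1, -0.067 to 0.18 for Il15, -0.068 to 0.26 for Il15ra, -0.074 to 0.075 for Il17rd, -0.17 to 0.13 for Il1r1, -0.034 to 0.14 for Il1rap, -0.54 to 0.25 for Il1rl2, -0.69 to 1.03 for Il21r, -0.12 to 0.44 for Il33, -0.23 to 0.22 for Il34, -0.15 to 0.57 for Il6, -0.031 to 0.17 for Csf1, -0.14 to 0.33 for Nfkbiz, -0.20 to 0.59 for Pycard, -0.0097 to 0.18 for Stat3 and -0.14 to 0.070 for Tollip. Beyond the libraries left out, the cause of these changes was not tested. No paired analysis was possible because the labels give no replicate numbers or shared batches, and the columns carry none. Below 10 CPM, depth limits what can be read: at 1 CPM a library held as few as 4.05 reads.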
